A study of Mus musculus with 2 samples.

Results

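The 10 genes described here encode heat shock proteins of the HSP70 and HSP90 classes, the main ATP-driven protein-folding machines of the cell. They were chosen by symbol (Hspa1l, Hspa2, Hspa4, Hspa4l, Hspa5, Hspa8, Hspa9, Hsp90aa1, Hsp90ab1 and Hsp90b1). No measured value entered that rule, but earlier results of these data were known when it was made. All 10 were found among the 51868 rows of the count table, and all 10 passed the filter on low counts, as did 14129 rows in all.

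HSP70 proteins grip short exposed stretches of unfolded polypeptides and release them in a cycle of ATP hydrolysis, in which J-domain proteins deliver the client and nucleotide exchange factors reset the chaperone. HSP90 proteins act later, as dimers, on clients that are close to their folded form, and are steered by co-chaperones. In male germ cells part of the HSP70 set is replaced by testis-specific members, and some of these chaperones are needed for meiosis and for the remodelling of spermatids.

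The cells came from the testes of 2 untreated wild-type C57Bl/6J Crl mice aged 8 weeks, with 1 droplet library per mouse and no experimental treatment. Mouse 1 gave 1237 cells with 27450497 unique molecular identifiers (UMIs, each standing for 1 captured RNA molecule), and mouse 2 gave 1315 cells with 30302332 UMIs. No cell barcode was shared between the mice. Per the labels, seminiferous tubules were isolated and cut, the tissue was digested with enzymes at body temperature, and the cells were strained before capture.

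Cells were grouped by K-means without the 10 genes and without the other chaperone genes described later, so that none of these genes formed the groups. Each group was named from marker genes and carries the ending "-like". The 6 groups large enough for a test were put in order along spermatogenesis. That order is the median rank of their cells in diffusion pseudotime, which orders cells by likeness. They were 164 early spermatocyte-like cells, 527 cells like pachytene or later spermatocytes (later spermatocyte-like cells from here on), 691 early round spermatid-like cells, 447 round spermatid-like cells, and a first cluster of 197 and a second of 508 elongating or condensing spermatid-like cells. The early round name rests on 7 genes, 6 of them of the Ssxb family. The first elongating cluster passed 12 of 12 markers of its own class and also 10 of 12 markers of round spermatids. Its median rank was 2022 and 2141 in mouse 1 and mouse 2, against 2191 and 2285 for the second. Cut into 20 bins, the ordered cells had no bin in which the first elongating cluster was the most common group. The order thus does not clearly separate the 2 elongating clusters in time. Small clusters held 6 Sertoli-like cells, 5 Leydig-like cells and 7 cells left unnamed, in which 10 of 12 spermatogonium markers and 12 of 14 Sertoli markers were raised.

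Levels are given as CPM (counts per 1000000), the gene's UMIs per 1000000 UMIs summed over a cluster in 1 mouse. Differences between successive clusters are log2 fold changes from edgeR's quasi-likelihood test on the 12 sums (6 clusters, 2 mice), after TMM scaling, with Benjamini-Hochberg adjustment over the 14129 rows and a threshold of 0.05. The p-values rest on the spread between the 2 mice, pooled over the 6 clusters and drawn toward that of other rows. The standard errors therefore do not measure the gap between these mice at a single step. Several results depended on the scaling, and the TMM factors ran from 1.66 in early spermatocyte-like cells of mouse 1 to 0.484 in the second elongating cluster of mouse 2. A fold change after TMM can therefore be higher than the ratio of the CPM.

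Together the 10 genes took 1.001% and 0.923% of all UMIs in early spermatocyte-like cells of mouse 1 and mouse 2. They took 0.776% and 0.772% in later spermatocyte-like cells, 0.579% and 0.557% in early round, 0.388% and 0.401% in round spermatid-like cells. The share was 0.212% and 0.220% in the first and 0.178% and 0.180% in the second elongating cluster. It was thus lower in each cluster than in the one before it, in both mice. Single genes weigh heavily in this share. Hsp90aa1 alone gave 4793 of 10924 and 10816 of 22340 of these UMIs in early spermatocyte-like cells. In the second elongating cluster Hspa4l alone gave 3358 of 6296 and 3228 of 5569. The share therefore does not stand for each of the 10 genes. As UMIs per cell the sum was highest in later spermatocyte-like cells, at 263 in both mice, and lowest in the second elongating cluster, at 22.4 and 24.5.

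**Figure D1:**
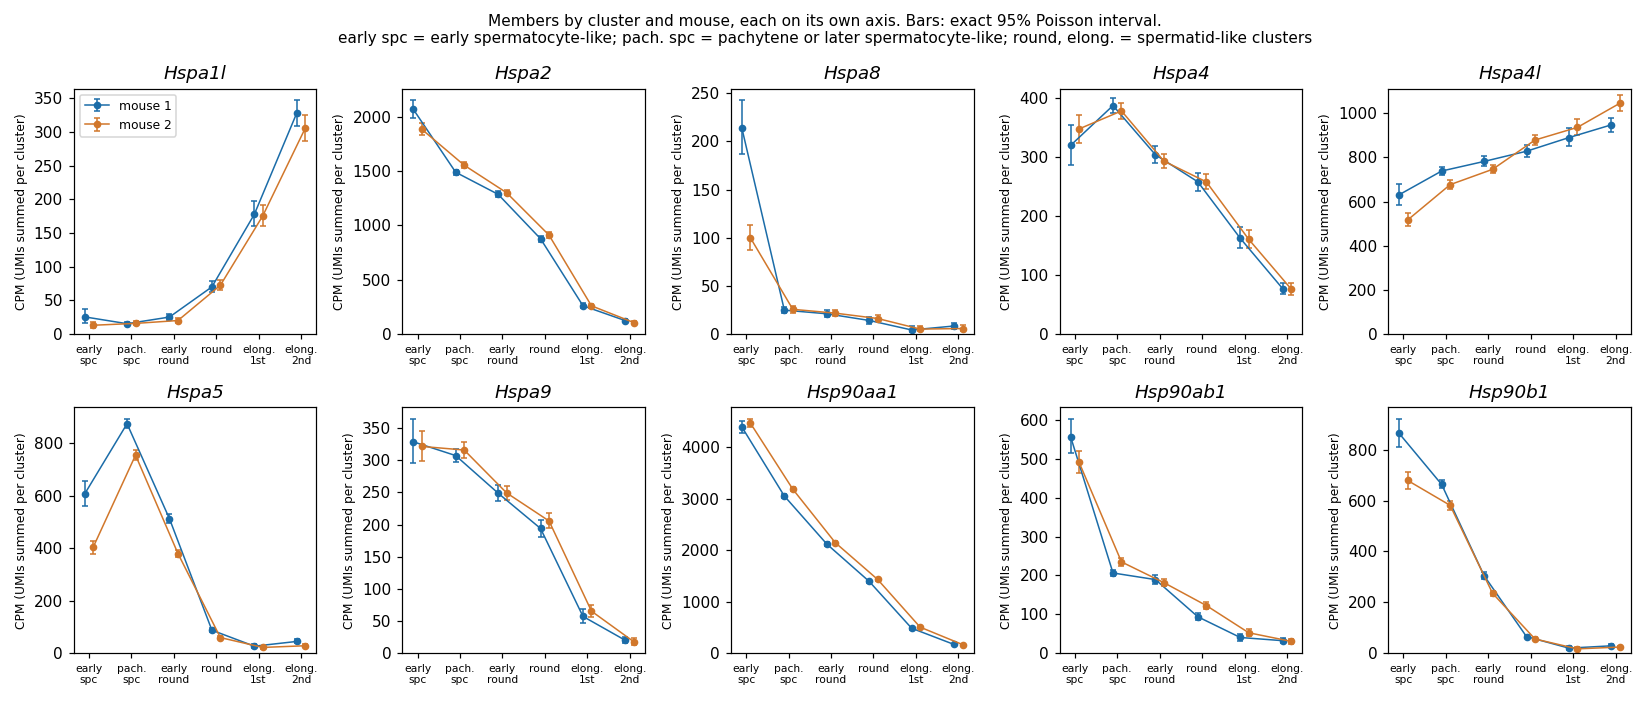
CPM of each gene (vertical axes, each starting at 0 and with its own range) in the 6 clusters in order of spermatogenesis, for mouse 1 (blue) and mouse 2 (orange), with exact 95% Poisson intervals that cover counting error only. Hspa1l and Hspa4l were highest in the second elongating cluster, Hspa4 and Hspa5 in later spermatocyte-like cells and the other 6 in early spermatocyte-like cells.

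All 10 genes differed over the 6 clusters in edgeR's F test, but so did 97.1% of all rows tested. From early to later spermatocyte-like cells 3 of the 10 were called higher and 2 lower, where 25.6% of all rows were called higher and 24.5% lower (50.1% together). Into early round spermatid-like cells 1 was higher and 4 lower (31.7% and 31.1% of all rows, 62.8% together). From early round to round spermatid-like cells 2 were higher and 4 lower (25.8% and 20.1%, 45.9% together). Into the first elongating cluster 2 were higher and 7 lower (23.4% and 20.9%, 44.3% together), and from the first to the second elongating cluster 5 were higher and 4 lower (16.3% and 23.3%, 39.5% together). With the total UMI count in place of TMM the 5 steps gave 2 higher and 4 lower, 1 and 5, 1 and 6, 1 and 8, and 1 and 5 genes. Under that setting 2845, 4342, 3099, 2438 and 851 of all rows were called higher at the 5 steps. Those called lower were 4448, 4769, 4609, 5562 and 5165, so the background also moved toward lower calls late.

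**Figure D2:**
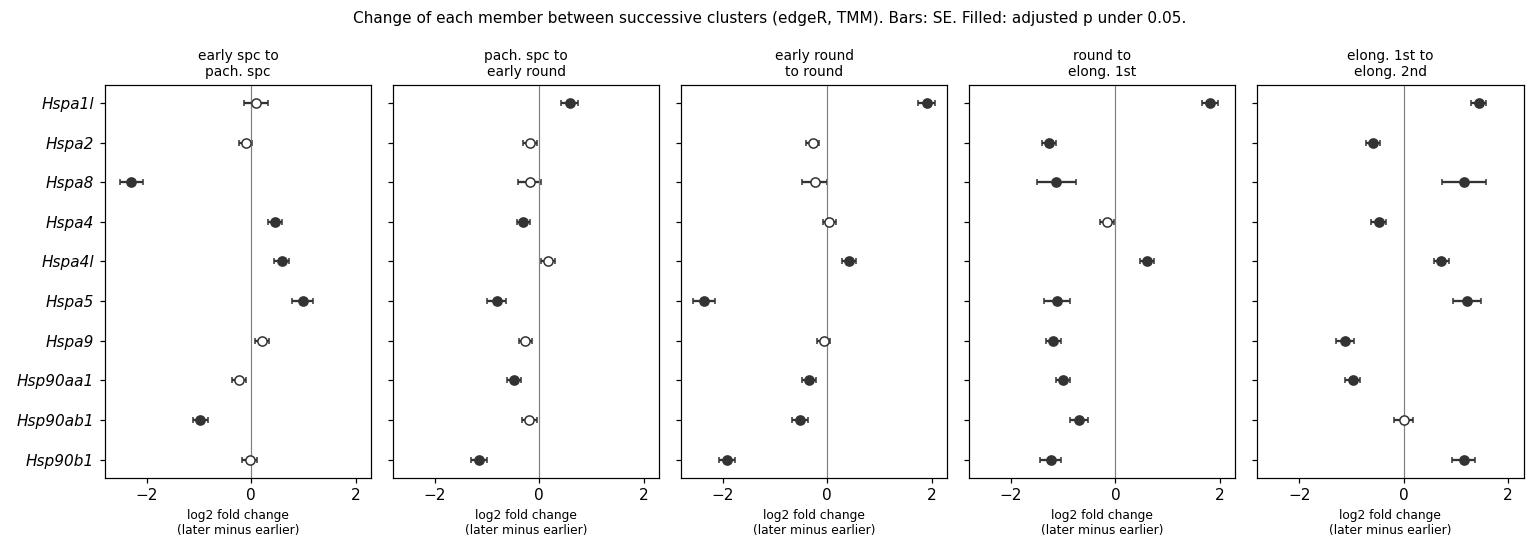
log2 fold change (later minus earlier cluster, horizontal axes) of each gene at the 5 successive steps, from edgeR after TMM scaling, with standard errors; filled points had an adjusted p under 0.05. At the step into the first elongating cluster only Hspa1l and Hspa4l lay among the calls above 0, and 7 genes lay among the calls below it. Of all rows 23.4% were called higher and 20.9% lower at this step.

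Among the cytosolic HSP70 genes, Hspa2 and Hspa1l, both known as germ cell members, changed in opposite directions into the first elongating cluster. Hspa2, which is required for male meiosis, lies on chromosome 12 (76404176 to 76406938, + strand, GRCm38). Its level was 2069 and 1885 CPM in early spermatocyte-like cells of mouse 1 and mouse 2, and 1489 and 1554 CPM in later spermatocyte-like cells. It was 1286 and 1301 CPM in early round and 877 and 911 CPM in round spermatid-like cells. The first elongating cluster had 261 CPM in both mice and the second 124 and 106 CPM. Every cluster was below the one before it and the mice did not overlap between clusters.

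After TMM scaling, Hspa2 did not pass edgeR's test at the first 3 steps, with log2 fold changes of -0.11, -0.18 and -0.28. With the total UMI count the first (-0.38) and the third (-0.53) were called. DESeq2 called both too, at -0.40 and -0.22. The third was also called with UMIs per cell (-0.36), without protamine and transition protein rows (-0.38) and after thinning (-0.41). The second was called with UMIs per cell (-0.96) and without protamine and transition protein rows (-0.37). With the mouse as a block, the step from early round to round spermatid-like cells passed (edgeR adjusted p = 0.0260, against 0.0799 without the block). The p-values of the block fit are those of a normal curve, so that fit treated the spread as known. Hspa2 fell by 1.27 ± 0.14 (SE) on the log2 scale into the first elongating cluster (edgeR adjusted p = 5.08e-08). Into the second it fell by a further 0.58 ± 0.14 (edgeR adjusted p = 0.00171), a call lost without the filter on low counts (-0.42) and after thinning (-0.36).

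Hspa1l, the HSP70 gene of late spermatids, is encoded on chromosome 17 (34972703 to 34979285, + strand) beside the inducible Hspa1a and Hspa1b. It had 25.7 and 13.2 CPM in early spermatocyte-like cells of mouse 1 and mouse 2, 15.5 and 16.0 CPM in later spermatocyte-like cells, and 25.4 and 20.2 CPM in early round spermatid-like cells. These 3 clusters did not form a clear order, since the mice of early spermatocyte-like cells overlapped both of the others. The level was 70.2 and 72.6 CPM in round spermatid-like cells, 178 and 176 CPM in the first and 328 and 306 CPM in the second elongating cluster.

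Hspa1l rose by 1.90 ± 0.16 (SE) on the log2 scale from early round to round spermatid-like cells (edgeR adjusted p = 1.92e-09), or 3.74-fold. It rose by 1.82 ± 0.15 into the first elongating cluster (edgeR adjusted p = 1.07e-09). Both of these rises were also called with the total UMI count (1.66 and 1.31) and with UMIs per cell (1.83 and 1.42). The step into early round spermatid-like cells gave 0.58 ± 0.17 (edgeR adjusted p = 0.00540) after TMM but -0.21 with UMIs per cell, and was not called after thinning (0.46) or without protamine and transition protein rows (0.39). The last step gave 1.44 ± 0.15 (edgeR adjusted p = 5.31e-08) after TMM but -0.08 with UMIs per cell. Per cell the mean was 4.23 and 4.55 UMIs in the first and 4.14 and 4.16 UMIs in the second elongating cluster.

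The share of cells with a Hspa1l UMI, after thinning each cell to 5000 UMIs, was 8.54% of early spermatocyte-like, 8.16% of later spermatocyte-like and 11.3% of early round spermatid-like cells. It was 30.0% of round spermatid-like cells, 63.5% of the first and 74.8% of the second elongating cluster. Without thinning the last 2 shares were 96.4% and 93.3%, at median depths that ranged from 23510 to 23893 UMIs per cell in the first cluster and from 11229 to 12439 in the second. RNA that floats free in the suspension also gives UMIs: Prm1, a protamine of condensing spermatids, reached 3.26% and 2.04% of its level in the second elongating cluster in early spermatocyte-like cells, and 1.58% in later spermatocyte-like cells of both mice. The corresponding share for Hspa1l was 7.82% and 4.32% in early and 4.73% and 5.22% in later spermatocyte-like cells. The part of free RNA in the low early level was not tested.

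The ratio of Hspa1l to Hspa2 UMIs does not depend on the scaling. It was 0.0124 and 0.00701 in early spermatocyte-like cells of mouse 1 and mouse 2, 0.0104 and 0.0103 in later spermatocyte-like cells, and 0.0197 and 0.0156 in early round spermatid-like cells. It was 0.0800 and 0.0797 in round spermatid-like cells, 0.680 and 0.674 in the first and 2.64 and 2.88 in the second elongating cluster. From later spermatocyte-like cells on, each cluster lay above the one before it in both mice.

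**Figure D3:**
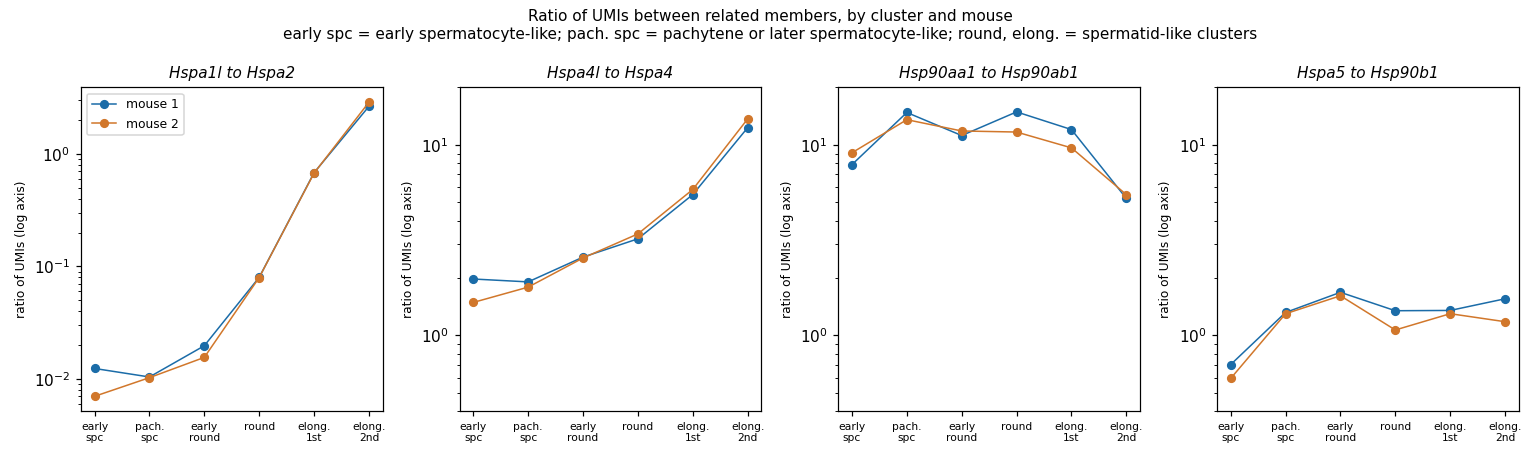
Ratio of UMIs between 4 pairs of related genes (vertical axes, logarithmic) in the 6 clusters, for mouse 1 (blue) and mouse 2 (orange). The ratio of Hspa1l to Hspa2 went from 0.0104 and 0.0103 in later spermatocyte-like cells to 2.64 and 2.88 in the second elongating cluster, and that of Hspa4l to Hspa4 from 1.91 and 1.79 to 12.3 and 13.7.

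Hspa8 encodes the constitutive HSP70 of most cells (Hsc70), on chromosome 9 (40800984 to 40810087, + strand). It had few UMIs, 1580 in all cells. Its level was 213 and 99.9 CPM in early spermatocyte-like cells of mouse 1 and mouse 2, 24.9 and 25.8 CPM in later spermatocyte-like cells, 21.2 and 21.8 CPM in early round and 14.2 and 16.2 CPM in round spermatid-like cells. The elongating clusters held 4.35 and 5.26 CPM in the first, from 9 and 15 UMIs, and 8.46 and 5.83 CPM in the second, from 30 and 18 UMIs. Early spermatocyte-like cells were thus far above all later clusters.

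Hspa8 fell by 2.29 ± 0.22 (SE) on the log2 scale from early to later spermatocyte-like cells (edgeR adjusted p = 1.22e-08). Along the ordered cells, cut into 20 bins, it went from 259 and 120.4 CPM in the earliest bin to 45.1 and 49.2 CPM in the next and 20.4 and 28.5 CPM in the one after. The next 2 changes between clusters did not pass the test after TMM. That into early round spermatid-like cells, of -0.18, was called with UMIs per cell (-0.96) and with clusters from the 2000 most variable rows (-0.54). It fell by 1.136 ± 0.37 into the first elongating cluster (edgeR adjusted p = 0.0160), a call lost after thinning (-0.72). The last step gave 1.16 ± 0.43 after TMM (edgeR adjusted p = 0.0354), 0.56 with the total UMI count, which was not called, and -0.37 with UMIs per cell.

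Markers of Sertoli cells were also higher in early spermatocyte-like cells of mouse 1, with 180.5 CPM summed over 14 genes against 60.7 CPM in mouse 2, and with 4 and 2 of the 14 at 0. In the other 5 clusters this sum ranged from 25.9 to 72.5 CPM. Hspa8 itself stood at 566 and 327 CPM in Sertoli-like cells, at 601 and 491 CPM in Leydig-like cells and at 390.3 and 887 CPM in the unnamed small cluster. The Sertoli-like value of mouse 2 and the Leydig-like value of mouse 1 come from 1 cell each, with 12223 and 9991 UMIs of all genes. The part of RNA from such small-cluster cells in the Hspa8 level was not tested. Hspa8 also has near-identical copies: 320 of its 403 stretches of 98 bases (the length of the RNA read) in the last 500 transcript bases, or 79.4%, were shared with other annotated genes, 7 in all, which together are nearly without UMIs (0 to 2 each). Reads from these stretches may not have been placed on 1 gene, so the Hspa8 level is uncertain. None of the other 9 genes shared a stretch.

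Hspa1a, the stress-inducible HSP70 of the cytosol, had 92 UMIs in all cells and Hspa1b had 0, which allows up to 3. That limit covers counting error only. Stretches shared with other genes were not searched for Hspa1a and Hspa1b, so reads not placed on 1 gene could be missing from both counts. Early spermatocyte-like cells had no Hspa1a UMI (upper limits 2.75 and 1.24 CPM), and the gene stood at 10.1 and 6.66 CPM in the first elongating cluster, its highest of the 6. It rose by 3.28 ± 0.59 (SE) on the log2 scale into round spermatid-like cells, from 1 and 4 to 10 and 22 UMIs (edgeR adjusted p = 8.61e-05), and by 1.92 ± 0.41 into the first elongating cluster (edgeR adjusted p = 0.000490). In the second elongating cluster it stood at 1.41 and 1.62 CPM.

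Hspa4 and Hspa4l belong to the HSP110 branch of the HSP70 family, whose proteins serve mainly as nucleotide exchange factors for other HSP70s. Hspa4 lies on chromosome 11 (53259814 to 53300457, - strand). It had 319.7 and 348 CPM in early spermatocyte-like cells of mouse 1 and mouse 2, 387 and 378 CPM in later spermatocyte-like cells, 304 and 293 CPM in early round and 258 CPM in round spermatid-like cells of both mice. The first elongating cluster had 162 and 161 CPM and the second 77.0 and 76.4 CPM. The peak in CPM was in later spermatocyte-like cells, and the CPM of the mice lay close within each cluster. The log2 change into this peak differed more between them, at 0.65 in mouse 1 alone and 0.29 in mouse 2 alone.

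Hspa4 rose by 0.46 ± 0.13 (SE) on the log2 scale into that peak after TMM (edgeR adjusted p = 0.00473), but the change was 0.19 with the total UMI count and 0.16 with DESeq2, and neither was called. It fell by 0.30 ± 0.12 into early round spermatid-like cells (edgeR adjusted p = 0.0397) and by 0.48 ± 0.14 from the first to the second elongating cluster (edgeR adjusted p = 0.00820). The former call was lost without the filter on low counts (-0.29), after thinning (-0.27), without doublets (-0.29) and with all rows in the clustering (-0.28), at changes of nearly the same size. The latter was lost without the filter (-0.32) and after thinning (-0.26). The change into round spermatid-like cells, of 0.04, did not pass the test. That into the first elongating cluster, of -0.16 after TMM, did not pass either, but it was called at -0.68 with the total UMI count (edgeR adjusted p = 3.58e-05), at -0.57 with UMIs per cell (edgeR adjusted p = 0.00178) and at -0.68 without the filter on low counts.

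Hspa4l, known for its high level in testis, lies on chromosome 3 (40744495 to 40796103, + strand). It had 631 and 517 CPM in early spermatocyte-like cells of mouse 1 and mouse 2, 738 and 677 CPM in later spermatocyte-like cells, 782 and 746 CPM in early round and 828 and 879 CPM in round spermatid-like cells. The elongating clusters had 889.7 and 936 CPM in the first and 947 and 1045 CPM in the second. In each mouse the CPM were higher at every step. Into the first elongating cluster 7 of the 10 genes were called lower after TMM, as were 20.9% of all rows.

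After TMM scaling, Hspa4l rose at 4 of 5 steps, by 0.58 ± 0.14 (SE) into later spermatocyte-like cells (edgeR adjusted p = 0.00136) and by 0.41 ± 0.14 into round spermatid-like cells (edgeR adjusted p = 0.0179). It rose by 0.61 ± 0.14 and 0.72 ± 0.14 on the log2 scale into the first and the second elongating cluster (edgeR adjusted p = 0.000876 and 0.000196). Of these rises the one into later spermatocyte-like cells was also called with the total UMI count (0.30), whereas the last 3 were 0.16, 0.10 and 0.12 and were not called. The rise into round spermatid-like cells was not called without the filter on low counts (0.38), with UMIs per cell (0.33), without protamine and transition protein rows (0.32) or after thinning (0.28) either. Nor was that into the first elongating cluster without the filter (0.09) or with UMIs per cell (0.21). With UMIs per cell the last step reversed to -0.80 and was called as a fall (edgeR adjusted p = 5.19e-05). Per cell Hspa4l had 21.2 and 24.3 UMIs in the first and 11.95 and 14.2 UMIs in the second elongating cluster. It was found in all 197 and all 508 cells of these clusters.

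The ratio of Hspa4l to Hspa4 UMIs was 1.97 and 1.49 in early spermatocyte-like cells of mouse 1 and mouse 2, 1.91 and 1.79 in later spermatocyte-like cells, 2.57 and 2.55 in early round and 3.21 and 3.41 in round spermatid-like cells. It was 5.48 and 5.83 in the first and 12.3 and 13.7 in the second elongating cluster. From later spermatocyte-like cells on, the ratio was higher at every step in both mice, on any scaling.

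In the endoplasmic reticulum (ER), Hspa5 (BiP) is the HSP70 and Hsp90b1 (Grp94) the HSP90, and both are classical targets of the unfolded protein response. Hspa5 lies on chromosome 2 (34771970 to 34777547, + strand) and Hsp90b1 on chromosome 10 (86690209 to 86705509, - strand). Both carry an ER stress element, spelled CCAAT, 9 bases of any kind and CCACG, in the 250 bases before their RefSeq start (GRCm38.p6). This motif was found on either strand in 37 of 32851 promoters, or 0.113%. The matches are shown because they are the only ones among the 6 members with a promoter sequence; capitals mark the motif and each line reads 5′ to 3′ on the strand of the gene.
Hspa5, chr2:34772020-34772048, + strand, motif from 65 bases before the start: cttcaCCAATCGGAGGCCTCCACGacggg
Hsp90b1, chr10:86705633-86705661, - strand, motif from 212 bases before the start: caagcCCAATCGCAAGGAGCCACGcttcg
Hsp90b1, chr10:86705528-86705556, - strand, motif from 107 bases before the start, reading on the opposite strand: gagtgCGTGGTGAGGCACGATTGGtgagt

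The heat shock element (GAA, any 2 bases, TTC, any 2 bases and GAA), held by 153 promoters or 0.466%, and the cAMP response element TGACGTCA, held by 508 or 1.55%, had no match in these windows of Hspa1l, Hspa2, Hspa4, Hspa4l, Hspa5 or Hsp90b1. Promoters of Hspa8, Hspa9, Hsp90aa1 and Hsp90ab1 were not analysed here. The Hspa5 match lies inside the longer span that GENCODE gives this gene. A match is a stretch of letters and was not tested for binding.

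Hspa5 had 606 and 403 CPM in early spermatocyte-like cells of mouse 1 and mouse 2, 875 and 755 CPM in later spermatocyte-like cells, and 512 and 379.6 CPM in early round spermatid-like cells. It then stood at 87.2 and 59.0 CPM in round spermatid-like cells, at 26.1 and 21.4 CPM in the first and at 44.3 and 27.8 CPM in the second elongating cluster. The level was highest in later spermatocyte-like cells, and the mice of early spermatocyte-like and early round spermatid-like cells overlapped.

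It rose by 0.98 ± 0.19 (SE) on the log2 scale into later spermatocyte-like cells (edgeR adjusted p = 0.000182). Hspa5 fell by 0.82 ± 0.19 into early round spermatid-like cells (edgeR adjusted p = 0.000681) and by 2.37 ± 0.20, or 5.15-fold, into round spermatid-like cells (edgeR adjusted p = 2.46e-09). It fell by 1.11 ± 0.25 into the first elongating cluster (edgeR adjusted p = 0.000764). These 4 changes kept their direction and their call with the total UMI count and with UMIs per cell, and the last of them was not called with clusters from the 2000 most variable rows (-0.73).

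Hsp90b1 had 865 and 679.7 CPM in early spermatocyte-like cells of mouse 1 and mouse 2, 664 and 582 CPM in later spermatocyte-like cells, 305 and 235 CPM in early round and 64.8 and 55.3 CPM in round spermatid-like cells. The first elongating cluster had 19.3 and 16.5 CPM and the second 28.5 and 23.6 CPM. The steep part of the decline lay between later spermatocyte-like and round spermatid-like cells. Hsp90b1 fell by 1.15 ± 0.15 (SE) on the log2 scale into early round spermatid-like cells (edgeR adjusted p = 3.89e-07), by 1.92 ± 0.16 into round spermatid-like cells (edgeR adjusted p = 9.50e-10) and by 1.24 ± 0.20 into the first elongating cluster (edgeR adjusted p = 2.01e-05). The first step, at -0.03, did not pass the test, while with UMIs per cell it was called at 0.38 (edgeR adjusted p = 0.0323).

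From the first to the second elongating cluster both ER genes were called higher after TMM, Hspa5 by 1.22 ± 0.27 (SE) and Hsp90b1 by 1.15 ± 0.22 on the log2 scale (edgeR adjusted p = 0.000742 and 0.000188). With the total UMI count these changes were 0.63 and 0.56 and were not called, and with UMIs per cell they reversed to -0.31 and -0.37. The levels rest on 54 and 61 UMIs of Hspa5 and 40 and 47 UMIs of Hsp90b1 in the first cluster. There Hspa5 stood at 2.98% and 2.83% and Hsp90b1 at 2.91% and 2.83% of their CPM in later spermatocyte-like cells. In the second cluster Hspa5 stood at 5.06% and 3.69% and Hsp90b1 at 4.29% and 4.06%. Over 11 markers of pachytene or later spermatocytes the same percentage had a median of 5.80% and 3.72% in the first cluster. In the second cluster this median was 5.65% and 4.77%. Of the 12 markers listed 3 were called higher and 2 lower at this step. The median change of the 12 markers at this step was 0.45 after TMM. Their summed level was 6553 and 6991 CPM in the first and 4943 and 5180 CPM in the second cluster, with 1 marker at 0 in the first cluster of mouse 2. Ldhc alone gave 12858 of the 13559 marker UMIs in the first cluster of mouse 1 and 19049 of 19936 in that of mouse 2. In the second cluster Ldhc gave 16836 of 17522 and 15508 of 15997, so the sum mainly follows this gene. The part of spermatocyte RNA in the late levels was not tested.

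**Figure D4:**
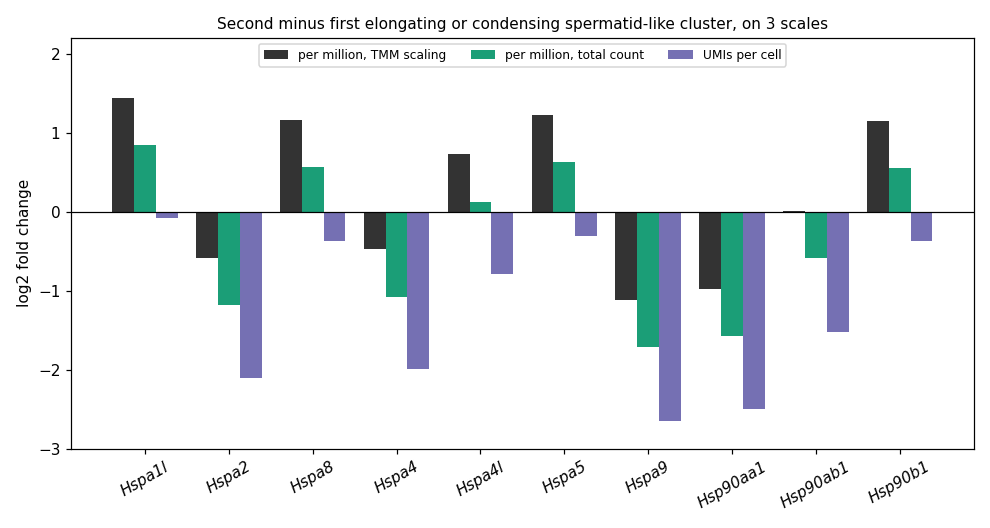
log2 fold change from the first to the second elongating or condensing spermatid-like cluster (vertical axis) of each gene on 3 scales: CPM after TMM (black), CPM of the total UMI count (green) and UMIs per cell (purple). Hspa1l, Hspa4l, Hspa5, Hspa8 and Hsp90b1 lie above 0 on both CPM scales and below 0 per cell, and Hspa2, Hspa4, Hspa9 and Hsp90aa1 lie below 0 on all 3.

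The ratio of Hspa5 to Hsp90b1 UMIs was 0.701 and 0.593 in early spermatocyte-like cells of mouse 1 and mouse 2 and 1.32 and 1.297 in later spermatocyte-like cells. In the 4 spermatid clusters it ranged from 1.07 to 1.68. The ratio thus was lowest in early spermatocyte-like cells in both mice.

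Both ER genes were lower in mouse 2 than in mouse 1 in all 6 clusters. For Hspa5 the ratio of mouse 2 to mouse 1 was 0.665 in early spermatocyte-like cells (95% counting interval 0.601 to 0.735), 0.863 in later spermatocyte-like cells (0.835 to 0.892), 0.741 in early round (0.705 to 0.779) and 0.677 in round spermatid-like cells (0.584 to 0.784). In the elongating clusters it was 0.820 (0.559 to 1.20) and 0.629 (0.478 to 0.823). For Hsp90b1 the ratios ranged from 0.773 in early round spermatid-like cells to 0.876 in later spermatocyte-like cells. Its interval included 1 in round spermatid-like cells (0.726 to 1.005). The same held in the first (0.547 to 1.33) and the second elongating cluster (0.605 to 1.13). This compares 1 animal with 1 animal, and the intervals cover counting error only. The mice were also compared over the list of ER folding genes described later, here with Hyou1, Dnajb11, Dnajc3 and Sil1 added. Of those with at least 100 UMIs, 9 of 13, 7 of 14, 6 of 12, 5 of 10, 2 of 6 and 4 of 7 were higher in mouse 1 in the 6 clusters in order. Of all such rows 50.1%, 48.8%, 48.6%, 47.5%, 46.8% and 47.1% were higher in mouse 1.

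In the 20 bins of ordered cells the gap between the mice was uneven. Hspa5 was lower in mouse 2 in 16 bins and higher in 4, with a median ratio of 0.852 and a range from 0.392 to 1.09. The levels nearly met in bin 3 (928 and 937 CPM in mouse 1 and mouse 2), bin 4 (909 and 908 CPM), bin 8 (536 and 537 CPM) and bin 16 (35.4 and 35.6 CPM). Hsp90b1 was lower in mouse 2 in 18 bins, with a median ratio of 0.894, and higher in bins 11 and 16. Genes outside the list also differed within bins: Sycp3, a protein of the meiotic chromosome axis, was lower in mouse 2 in 16 bins and Tnp1, a transition protein, in 18. Other members went the opposite way. Hsp90aa1 was higher in mouse 2 in 18 bins, Hsp90ab1 in 16, Hspa2 and Hspa9 in 14 each and Hspa8 in 12. Hspa1l was lower in mouse 2 in 14 bins, Hspa4l in 11 and Hspa4 in 10. The share over all rows was not counted in the bins.

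**Figure D5:**
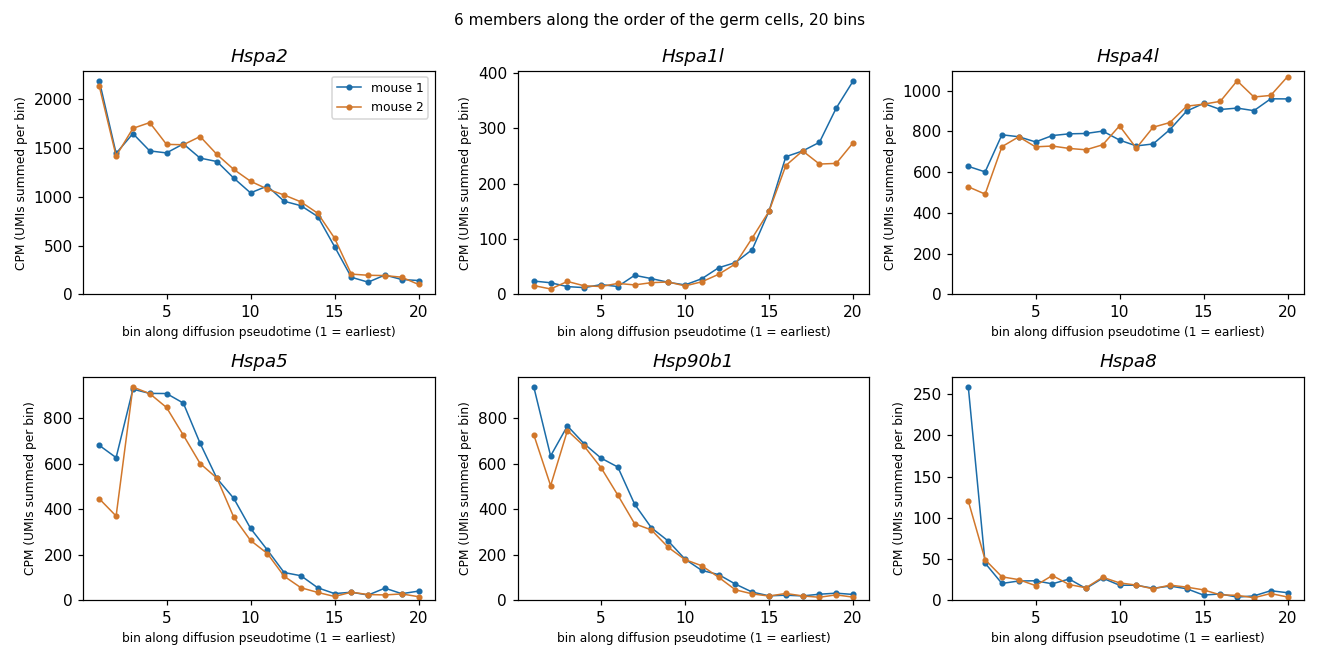
CPM of 6 genes (vertical axes, each starting at 0) in 20 bins of cells ordered by diffusion pseudotime (horizontal axes), for mouse 1 (blue) and mouse 2 (orange). The peak of Hspa5 was in bin 3 of each mouse (928 and 937 CPM), that of Hspa8 in bin 1, and that of Hspa1l in bin 20 (385 and 274 CPM).

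Hspa9 (mortalin), the HSP70 of mitochondria, is encoded on chromosome 18 (34937414 to 34954357, - strand). It had 329 and 322 CPM in early spermatocyte-like cells of mouse 1 and mouse 2, 307 and 316 CPM in later spermatocyte-like cells, 249 CPM in early round in both mice and 194 and 206 CPM in round spermatid-like cells. The first elongating cluster had 57.0 and 65.2 CPM and the second 19.7 and 17.5 CPM. The level changed little between mice and was far lower in both elongating clusters.

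Hspa9 fell by 1.19 ± 0.14 (SE) on the log2 scale into the first elongating cluster (edgeR adjusted p = 2.30e-07) and by 1.12 ± 0.17 into the second (edgeR adjusted p = 1.09e-05). The 3 earlier changes, of 0.21, -0.27 and -0.07, did not pass the test after TMM. With the total UMI count those into early round and into round spermatid-like cells were both called at -0.32 (edgeR adjusted p = 0.0134 and 0.0193). The former was also called with DESeq2 (-0.21), with UMIs per cell (-1.05), without protamine and transition protein rows (-0.46) and with the mouse as a block (edgeR adjusted p = 0.0156, against 0.0664 without the block). The first change was called higher with UMIs per cell (0.62), without the filter on low counts (0.43) and with clusters from the 2000 most variable rows (0.65).

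Of the HSP90 genes of the cytosol, Hsp90aa1 encodes the alpha form, which male germ cells need to pass through meiosis, and Hsp90ab1 the beta form of most cells. Hsp90aa1 lies on chromosome 12 (110690605 to 110702728, - strand). It had 119981 UMIs in all cells, with 4391 and 4466 CPM in early spermatocyte-like cells of mouse 1 and mouse 2 and 3051 and 3183 CPM in later spermatocyte-like cells. It had 2118 and 2145 CPM in early round and 1392 and 1429 CPM in round spermatid-like cells, and 482 and 504 CPM in the first and 167 and 165 CPM in the second elongating cluster. The order of the clusters was the same in both mice, without overlap.

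After TMM scaling, Hsp90aa1 did not pass the test at the first step, at -0.24. It was called there with the total UMI count (-0.51), with DESeq2 (-0.53) and after thinning (-0.43). It fell by 0.49 ± 0.14 (SE) on the log2 scale into early round (edgeR adjusted p = 0.00342) and by 0.35 ± 0.14 into round spermatid-like cells (edgeR adjusted p = 0.0414). The latter call was lost without the filter on low counts (-0.38) and with all rows in the clustering (-0.31), at changes of about the same size. The falls into the first and the second elongating cluster were larger, at -1.004 ± 0.14 and -0.98 ± 0.14 (edgeR adjusted p = 2.42e-06 and 7.89e-06). As UMIs per cell it was highest in later spermatocyte-like cells, at 103 and 108, and lowest in the second elongating cluster, at 2.10 and 2.24.

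Hsp90ab1 lies on chromosome 17 (45567775 to 45573271, - strand). It had 558 and 492 CPM in early spermatocyte-like cells of mouse 1 and mouse 2, 206 and 235 CPM in later spermatocyte-like cells, 189 and 181 CPM in early round and 93.5 and 122 CPM in round spermatid-like cells. The elongating clusters had 40.1 and 52.3 CPM in the first and 31.9 and 30.1 CPM in the second. Early spermatocyte-like cells stood above all later clusters in both mice.

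Hsp90ab1 fell by 0.98 ± 0.14 (SE) on the log2 scale from early to later spermatocyte-like cells (edgeR adjusted p = 6.38e-06). The change into early round spermatid-like cells, of -0.19, did not pass the test after TMM. It was called with UMIs per cell (-0.98), without protamine and transition protein rows (-0.39) and with clusters from the 2000 most variable rows (-0.40). Hsp90ab1 fell by 0.53 ± 0.15 into round spermatid-like cells (edgeR adjusted p = 0.00482) and by 0.70 ± 0.17 into the first elongating cluster (edgeR adjusted p = 0.00129). The last step, at 0.01 after TMM, did not pass the test, while with the total UMI count it was -0.59 and with UMIs per cell -1.52, and both of these were called. The highest levels were in the small clusters, with 2073 and 2480 CPM in the unnamed cluster, 1321 and 899.9 CPM in Sertoli-like cells and 1301 and 761 CPM in Leydig-like cells. Of these values, the Sertoli-like one of mouse 2 and the Leydig-like one of mouse 1 come from 1 cell each.

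The ratio of Hsp90aa1 to Hsp90ab1 UMIs was 7.87 and 9.08 in early spermatocyte-like cells of mouse 1 and mouse 2 and 14.8 and 13.6 in later spermatocyte-like cells. It ranged from 9.64 to 14.9 in the next 3 clusters and was 5.23 and 5.47 in the second elongating cluster. The ratio was thus lower at both ends of the series than in the middle, in both mice.

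Among partners of the HSP70s, 43 of 45 J-domain genes were tested. At the 5 steps 16, 13, 11, 14 and 18 of them were called higher and 10, 13, 8, 7 and 4 lower, where 25.6%, 31.7%, 25.8%, 23.4% and 16.3% of all rows were called higher and 24.5%, 31.1%, 20.1%, 20.9% and 23.3% lower. The same shares of all rows are the background of every list that follows. The median change of the J-domain genes was 0.24, 0.00, -0.04, 0.07 and 0.43, beside 0.00, -0.04, -0.06, -0.06 and -0.01 over all rows. Their summed level was 5987 and 5982 CPM in early spermatocyte-like cells of mouse 1 and mouse 2 and 11615 and 12051 CPM in the second elongating cluster, so that it was higher late, while the sum of the 10 chaperones was lower. Dnajb7 rose by 3.43 ± 0.19 (SE) on the log2 scale into round spermatid-like cells (edgeR adjusted p = 2.63e-12), from 21.8 and 31.1 to 231 and 254 CPM. Dnajc17 rose into the first elongating cluster from 1.86 and 1.66 to 14.5 and 16.8 CPM, and Dnajc24 fell there from 19.8 and 22.9 to 0.967 and 1.05 CPM. Dnajc12 had 3.64 and 3.09 CPM in later spermatocyte-like cells and no UMI in early round spermatid-like cells, which allows up to 0.508 and 0.359 CPM.

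Of 9 nucleotide exchange factors tested, 6, 3, 0, 2 and 4 were called higher and 0, 3, 3, 3 and 2 lower at the 5 steps. Bag3 rose from 13.7 and 22.7 to 66.3 and 92.3 CPM and Bag5 from 282 and 277 to 763 and 761 CPM between early and later spermatocyte-like cells. Bag1 rose from 173 and 251 to 469 and 679 CPM into the first elongating cluster. Grpel2, an exchange factor of mitochondria, fell from 5.08 and 3.59 to 1.17 and 0.828 CPM into round spermatid-like cells. Its levels in round spermatid-like cells rest on few UMIs.

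Of 27 HSP90 co-chaperones 26 were tested. At the 5 steps 9, 4, 2, 4 and 8 were higher and 9, 10, 10, 12 and 4 lower, beside 24.5%, 31.1%, 20.1%, 20.9% and 23.3% of all rows called lower. Their median change was 0.11, -0.28, -0.29, -0.52 and 0.24, and their summed level went from 6477 and 6476 CPM in early spermatocyte-like cells to 1163 and 1203 CPM in the second elongating cluster. Ptges3 (p23) and Stip1 (Hop), which act on HSP90 directly, fell by 2.09 ± 0.17 (SE) and 2.27 ± 0.17 on the log2 scale into the first elongating cluster; both were picked after their values had been seen. Nudc fell from 567 and 498 to 66.0 and 71.8 CPM between early and later spermatocyte-like cells, while its relative Nudcd2 rose from 8.33 and 7.92 to 132 and 148 CPM into early round spermatid-like cells. Unc45a rose from 0.932 and 0.497 to 16.9 and 11.9 CPM and Unc45b from 1.17 and 0.331 to 2.90 and 3.51 CPM into the first elongating cluster. Round spermatid-like cells held 4290055 and 6035353 UMIs of all genes and the first elongating cluster 2069153 and 2851532. The Unc45b levels and the earlier Unc45a levels thus rest on few UMIs.

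Of the other HSP70 and HSP90 family genes, 8 of 9 were tested. At the 5 steps 0, 1, 2, 5 and 1 were higher and 3, 4, 2, 1 and 3 lower. Hsph1, the third HSP110 gene, rose by 3.27 ± 0.18 (SE) on the log2 scale into the first elongating cluster (edgeR adjusted p = 7.40e-13), from 21.0 and 18.9 to 127 and 141 CPM. Hspa12b rose there from 0.932 and 0.166 to 7.25 and 7.01 CPM and Hyou1, an ER relative of Hspa4, from 1.40 and 0.166 to 3.38 and 3.16 CPM. These levels of Hspa12b and Hyou1 likewise rest on few UMIs and are imprecise.

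Heat shock factors, the transcription factors of heat shock genes, and their binding protein Hsbp1 gave 5 tested of 7 listed genes. At the 5 steps 1, 2, 2, 0 and 0 were higher and 0, 2, 1, 2 and 3 lower. Hsf2 rose by 3.25 ± 0.19 (SE) on the log2 scale into early round spermatid-like cells (edgeR adjusted p = 7.85e-13), from 4.41 and 5.37 to 41.6 and 47.3 CPM, and Hsfy2 by 4.23 ± 0.26 (edgeR adjusted p = 1.75e-12). Hsf5 fell into the first elongating cluster from 16.1 and 21.5 to 6.28 and 4.56 CPM. Hsbp1 rose from 1141 and 1144 to 2203 and 2052 CPM between early and later spermatocyte-like cells.

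Of 14 other genes of ER folding and the unfolded protein response tested, 4, 2, 2, 3 and 3 were called higher and 6, 9, 5, 6 and 3 lower at the 5 steps. Herpud1, which serves in the removal of misfolded ER proteins, rose by 4.10 ± 0.19 (SE) on the log2 scale into the first elongating cluster (edgeR adjusted p = 1.07e-13), from 29.4 and 21.0 to 274 and 326 CPM, at the step where Hspa5 and Hsp90b1 fell. Cnpy2 fell from 18.3 and 14.04 to 1.15 and 0.671 CPM into later spermatocyte-like cells, and Creld2 fell from 240.2 and 218 to 24.0 and 23.6 CPM into the second elongating cluster. Xbp1, a transcription factor of the response, had 2.03 and 1.08 CPM in early round and no UMI in round spermatid-like cells, which allows up to 0.699 and 0.497 CPM.

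All 9 other genes of mitochondrial folding and proteolysis were tested, and 1, 3, 0, 0 and 2 were higher and 4, 5, 2, 1 and 2 lower at the 5 steps. Hspe1 and Hspd1, the chaperonin pair of the matrix, fell from 58.6 and 32.2 to 5.08 and 3.62 CPM and from 37.6 and 9.91 to 2.203 and 2.415 CPM between early and later spermatocyte-like cells, a step at which Hspa9 did not pass the test. The early levels of both were higher in mouse 1, in which the Sertoli markers summed to 180.5 CPM against 60.7 CPM in mouse 2. The part of Sertoli RNA in them was not tested. Stretches shared with other genes were not searched for Hspe1 and Hspd1, so reads not placed on 1 gene could be missing from their counts. Dnlz, an escort protein of Hspa9, fell from 37.6 and 40.1 to 6.80 and 6.44 CPM there. Timm44, which tethers Hspa9 to the import channel, fell from 118 and 94.8 to 21.0 and 15.7 CPM into round spermatid-like cells.

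Immediate early genes, which tissue digestion can raise along with heat shock genes, were low. Their sum over 12 genes, of which 5 were tested, was 33.9 and 21.1 CPM in early spermatocyte-like cells and ranged from 10.8 to 51.6 CPM in the other 5 clusters. At the 5 steps 0, 3, 1, 3 and 0 were higher and 0, 1, 0, 0 and 1 lower. Btg2 and Jund rose into the first elongating cluster, to 8.22 and 11.9 CPM and to 8.70 and 19.99 CPM, the cluster in which Hspa1a was highest. Jun fell from 20.1 and 18.2 to 1.02 and 4.07 CPM into early round spermatid-like cells, and Dusp1 fell from 15.5 and 13.7 to 1.41 and 1.295 CPM at the last step. The part of digestion in the chaperone levels was not tested.

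The rows most like each gene were taken as those with the highest Pearson correlation of log2(CPM + 1) over the 12 sums, among 7986 rows with at least 500 UMIs. These sums share the order of the clusters, so that high values are common, and the correlations are given as a description. Hspa1l was most like 1700020G17Rik (r = 0.997) and Gm6760 (0.996), and Hspa4l was most like 4933438B17Rik (0.983) and Akap12 (0.963). Hspa2 was followed by Snrpa and Tuba3a, Hspa4 by Drc3 and Ash2l, Hspa9 by Cct4 and Pdcd4 and Hsp90aa1 by Ebna1bp2 and Dhx30, with r from 0.996 to 0.998. Hspa5 was followed by Bms1 and Polr2e, Hsp90b1 by Zbtb32 and Tmem230, Hsp90ab1 by Atp5f1 and H2afy, and Hspa8 by Prdx1 and Rpl6, with r from 0.985 to 0.998. Among the 10 genes themselves, Hspa1l correlated at 0.87 with Hspa4l and between -0.96 and -0.76 with the other 8.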

How the data were processed

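Testis cells of 2 mice were captured with the Chromium 3′ v2 chemistry. The authors made the deposited UMI counts with Cell Ranger 2.0.0 (bcl2fastq 2.17.1.14, per the labels), against a repeat-masked GRCm38 genome with Ensembl annotation and added RepBase sequences, and thinned reads to the same mean number per cell in each mouse before combining the mice. The ending of each barcode was taken as the mouse. Downsampling evens out the mean read depth of the mice, not that of cells, and leaves the counts without normalization.

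All 2552 cells and 51868 rows were kept. K-means (K = 9, 10 principal components, seed 42, 10 restarts) used 27648 rows, without 142 rows of chaperone lists. A name needed at least 3 markers with 1.5 times the CPM of all cells. Scrublet marked 24 doublets, which were kept. UMIs were summed per mouse and cluster of at least 50 cells, and tested with edgeR 4.0.16 (filterByExpr, TMM, quasi-likelihood), with no term but the cluster. All clusters share 1 estimate of the spread. The procedure was tested on simulated data with the same mean profile in all clusters, apart from added changes. Those data held no composition shift of the size seen in the TMM factors and no effect of the animal. They therefore cannot show how the procedure handles either. Same-numbered sums come from 1 animal, and their deviations correlated at 0.0115 to 0.152 (median 0.0498) over 15 pairs of clusters, so a fit with the mouse as a block was an alternative.

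CPM carry exact 95% Poisson intervals and shares exact binomial ones; a count of 0 allows 3. Up to 4 genes of each further list are named, those with the largest log2 fold change among calls of 1 direction in both mice. Members, lists and tests were chosen with earlier results of these data known. Positions and transcripts came from GENCODE (GRCm38) and promoters from RefSeq. Strand-specific counting was not given in the sources used here; Hspa1l overlaps the antisense gene Gm10501 (93 UMIs) and Hsp90b1 overlaps 1810014B01Rik on the opposite strand (48 UMIs). Alternatives were DESeq2 1.42.0, the total UMI count, no filter on low counts, UMIs per cell, leaving out protamine and transition protein rows, K = 10, seed 1, the 2000 most variable rows, all rows in the clustering, leaving out doublets, thinning to 5000 UMIs, and each mouse alone. Python 3.11.15, scanpy 1.11.5 and R 4.3.3 were used.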

Additional observations from a re-analysis of the deposited data

How the results depend on the processing

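Of 50 changes of the 10 genes, 34 were called after TMM scaling. Of all rows 50.1%, 62.8%, 45.9%, 44.3% and 39.5% were called at the 5 steps. Leaving out mouse 1 or mouse 2 gave values without a test, since no spread is left, and turned none of the 34. The widest relative gaps between mouse 1 and mouse 2 among calls were 0.65 and 0.29 for Hspa4 into later spermatocyte-like cells, -0.76 and -0.30 for Hsp90ab1 into round spermatid-like cells and 1.56 and 0.72 for Hspa8 at the last step. The block for the mouse lost no call and added those of Hspa2 and Hspa9 given above. It changed no other call. Its p-values are those of a normal curve, so the spread was treated as known and these added calls are less strict. Of the 16 changes not called after TMM, 10 were called in the same direction under at least 1 alternative. Of these, 6 were called with the total UMI count and 7 with UMIs per cell. How many of all rows not called after TMM gained a call in this way was not counted. The number of genes called stayed within 1.5 times at each step and setting except into early round spermatid-like cells, where 5 became 9 with UMIs per cell and 3 after thinning to 5000 UMIs. Over all rows the calls at that step went from 8871 to 10790 with UMIs per cell and to 5184 after thinning.

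The scale was the choice that changed most. The median change of all rows at the 5 steps was 0.00, -0.04, -0.06, -0.06 and -0.01 after TMM, -0.24, -0.09, -0.31, -0.57 and -0.60 with the total UMI count, and 0.40, -0.82, -0.14, -0.46 and -1.52 with UMIs per cell. With UMIs per cell 6 called rises reversed: Hspa1l into early round spermatid-like cells (-0.21) and, from the first to the second elongating cluster, Hspa1l (-0.0831), Hspa4l (-0.80), Hspa5 (-0.31), Hspa8 (-0.37) and Hsp90b1 (-0.37). Only Hspa4l, at the last step, was then called as a fall (edgeR adjusted p = 5.19e-05). Of all calls at that last step 41.1% were higher after TMM, 14.1% with the total UMI count, 52.7% with DESeq2 and 0.464% with UMIs per cell.

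The other reversals were of changes that had not passed the test, and those called in the new direction are named as such. From early to later spermatocyte-like cells Hspa1l gave -0.17 with DESeq2, -0.16 with the total UMI count and -0.23 with the 2000 most variable rows, and Hspa9 gave -0.0819 and -0.0625 with the former pair. At the same step Hspa2 gave 0.12 without a filter, 0.30 with UMIs per cell and 0.12 with the 2000 most variable rows, and Hsp90aa1 gave 0.17 with UMIs per cell and 0.0928 with those rows. Hsp90b1 gave 0.20 there without a filter, 0.38 with UMIs per cell, 0.0597 without protamine and transition protein rows and 0.0071 without doublets. Of these only the value with UMIs per cell was called (edgeR adjusted p = 0.0323). Hspa4l into early round spermatid-like cells gave -0.62 with UMIs per cell and -0.0299 without protamine rows. The former was called as a fall (edgeR adjusted p = 0.000511). Hspa4 into round spermatid-like cells gave -0.21 with the total UMI count, -0.0395 with UMIs per cell, -0.0526 without protamine rows and -0.0853 after thinning. Hsp90ab1 at the last step gave -0.59 with the total UMI count, -1.52 with UMIs per cell and -0.00086 without doublets. Those with the total UMI count and with UMIs per cell were called (edgeR adjusted p = 0.0130 and 9.03e-07). The cause of these reversals was not tested. Shares of cells with a UMI were higher, or the same, without thinning, and no ratio between mice moved beyond its interval without doublets. With 9 to 61 UMIs per mouse, levels of Hspa8, Hspa5 and Hsp90b1 in the first elongating cluster are imprecise.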
